A study of Rattus norvegicus with 6 samples.

Results

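Lyve1 Fcna macrophages of the rat pancreas were 16414 of the 75981 cells kept from 78024 barcodes in single-cell RNA sequencing of 6 rats. A cell was kept with at least 200 genes detected and at most 25% of its unique molecular identifiers (UMIs, the tags that count each captured RNA molecule) from mitochondrial genes. A kept cell was called a macrophage when at least 3 of the 6 genes C1qa, C1qb, C1qc, Csf1r, Cd68 and Ms4a7 had a UMI and Cd3d, Cd3e and Cd3g had none, which gave 27529 macrophages. Those with at least 2 UMIs of Lyve1 and Fcna together were the members, and the remaining 11115 are called other macrophages. The counts of Lyve1 and Fcna thus chose the members and are no finding about them.

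The donors were male Wistar rats in 3 groups of 2. Young rats were 2 months old and on a normal diet. Old rats and HFHF-old rats were 20 months old, after 18 months of feeding with the normal diet or with a high-fat, high-fructose (HFHF) diet, so that old against young is a comparison of age on the normal diet and HFHF-old against old a comparison of diet at the same age. In all 6 rats the pancreas was digested with collagenase P through the bile duct, enriched for islets on a density gradient and dispersed again before droplet capture, so shares of cells describe these preparations and not the whole organ.

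Macrophages that carry Lyve1, a receptor for the matrix sugar hyaluronan, lie along blood vessels and in connective tissue of many organs. Fcna encodes ficolin A, a secreted lectin that starts the lectin route of complement on microbial sugars. Such cells are known for scavenging haemoglobin and glycoproteins, and for low MHC class II compared with macrophages that present antigen. Neither the place of a cell nor whether it was long resident or newly recruited can be read from these counts.

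The 2 genes of the rule and the 2 further markers of these cells, Cd163 (a scavenger receptor for haemoglobin bound to haptoglobin) and F13a1 (the catalytic A chain of coagulation factor XIII), are shown by the 250 bases before their annotated starts, because their transcripts were counted together in the same cells below. The sequences come from RefSeq (build GRCr8, each 5′ to 3′ on the strand of its gene), and all 4 genes had an entry. Lyve1 lies on chromosome 1 (minus strand, chr1:174410978-174411227 shown), Fcna on chromosome 3 (minus strand, chr3:28847238-28847487), Cd163 on chromosome 4 (plus strand, chr4:158770524-158770773) and F13a1 on chromosome 17 (plus strand, chr17:28020947-28021196). Capitals mark GAGGAA, the purine box bound by factors of the PU.1 kind, and TGCTGA, the core of a MAF site, searched on both strands.
Lyve1: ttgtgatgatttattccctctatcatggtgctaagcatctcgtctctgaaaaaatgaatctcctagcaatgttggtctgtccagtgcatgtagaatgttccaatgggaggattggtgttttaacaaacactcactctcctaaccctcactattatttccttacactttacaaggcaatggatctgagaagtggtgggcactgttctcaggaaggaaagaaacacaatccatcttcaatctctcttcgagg
Fcna: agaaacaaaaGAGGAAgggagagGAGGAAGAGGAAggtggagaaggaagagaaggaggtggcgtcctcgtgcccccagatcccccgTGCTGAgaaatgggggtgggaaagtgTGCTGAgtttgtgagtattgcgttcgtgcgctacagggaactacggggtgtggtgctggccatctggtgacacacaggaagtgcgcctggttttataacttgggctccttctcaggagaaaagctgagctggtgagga
Cd163: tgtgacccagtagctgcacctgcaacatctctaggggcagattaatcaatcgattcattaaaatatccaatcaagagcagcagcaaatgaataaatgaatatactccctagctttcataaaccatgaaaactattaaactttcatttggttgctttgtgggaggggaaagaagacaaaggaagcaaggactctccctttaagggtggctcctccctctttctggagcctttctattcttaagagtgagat
F13a1: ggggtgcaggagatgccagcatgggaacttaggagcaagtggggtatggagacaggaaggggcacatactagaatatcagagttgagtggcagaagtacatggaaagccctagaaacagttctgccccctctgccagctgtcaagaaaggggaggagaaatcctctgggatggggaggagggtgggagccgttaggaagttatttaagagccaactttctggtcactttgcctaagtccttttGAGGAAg
Fcna held 3 matches to GAGGAA, of which 2 stand directly after each other, and 2 to TGCTGA. F13a1 held 1 match to GAGGAA, which starts 7 bases before the annotated start, and Lyve1 and Cd163 held no match to either. Among 33469 windows of the same length, 23.3% held GAGGAA and 15.1% held TGCTGA, so a match is common.

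Libraries differed in depth and in RNA from other cells. The number of members was 5386, 2911, 1248, 1540, 5315 and 14 in the 2 young, the 2 old and the 2 HFHF-old rats, each pair with replicate 1 first. Lists of 6 values below keep this order. HFHF-old replicate 2 stood apart with 14 members among 74 macrophages, and its values enter the means of its group with the same weight as those of replicate 1. Members had a median of 3077.5 to 12245 UMIs per cell over the 6 rats and 137212 to 88751976 UMIs in sum, and levels are given as CPM, UMIs of a gene per 1000000 UMIs of a rat's members. For levels between groups, CPM are scaled by trimmed mean of M-values (TMM) factors. On that scale a single UMI in HFHF-old replicate 2 is 5.88 CPM, and a count of 0 allows up to 17.6 CPM (3 UMIs), against at most 0.497 CPM in each other rat. In plain CPM 1 UMI is 7.29 and 3 UMIs are 21.9 CPM in that rat. Transcripts of pancreatic secretory cells were found in the members, where 8 islet genes summed to 21.9 to 203693 CPM and 7 acinar genes to 131 to 46562 CPM, lowest in HFHF-old replicate 2 in both cases. Members that also carried at least 2 B cell genes, or at least 3 genes of fibroblasts, blood endothelium or mast cells, made up 25.9, 40.8, 13.2, 4.55, 42.4 and 7.14%. In HFHF-old replicate 1 the 6 macrophage genes of the rule summed to 8338 CPM in members and 1256 CPM in other macrophages. The latter is near the 1190 CPM of its non-macrophages (kept cells that were no macrophages). In every other rat they summed to 2829 to 7457 CPM in other macrophages and 10.2 to 758 CPM in non-macrophages. Any 2 libraries shared at most 9 member barcodes.

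The members carried the marker genes of the cell type beyond the 2 genes that chose them. Cd163 was detected in 94.6, 82.3, 79.97, 83.6, 83.1 and 42.9% of members and F13a1 in 92.2, 80.5, 82.9, 85.9, 80.4 and 50%. The lowest shares, 6 and 7 of 14 cells, were those of HFHF-old replicate 2. Other macrophages carried both markers too, in smaller shares. Cd163 was detected in 57.9, 46.5, 23.1, 27.5, 41.6 and 5% of them and F13a1 in 45.0, 43.1, 25.2, 25.9, 35.5 and 5%. T cells of the same libraries (at least 2 UMIs of Cd3d, Cd3e and Cd3g and fewer than 3 of the macrophage genes), which should lack these genes, had a UMI of Cd163 in 9.97, 8.84, 9.68, 1.68, 22.8 and 0.134% and of F13a1 in 9.62, 10.4, 9.68, 1.48, 14.8 and 0.0668%, at median depths of 3166 to 8049.5 UMIs against 2922 to 11230 in macrophages. Both markers were thus detected in a larger share of members than of these T cells in every rat. T cells with 3 or more of the macrophage genes were left out, so free RNA in droplets that pass the macrophage rule was not measured. Prox1, Mmrn1 and Flt4, which define the lymphatic endothelium that also carries Lyve1, were detected in at most 3.86%, 0.207% and 0.395% of the members of any rat. The lymphatic list of 6 genes nevertheless summed to more in members (204, 76.8, 226, 305, 373 and 204 CPM) than in other macrophages (42.6, 22.2, 32.0, 27.0, 83.7 and 13.9 CPM) of each rat, most of it Pdpn, which is described with the genes higher in members. Cd209f, a lectin of the DC-SIGN family, was present in a small part of the members, 5.31, 9.89, 9.54, 4.35, 3.57 and 0%, where 0 of 14 has an exact 95% upper bound of 23.2%.

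Both genes of the rule were found in most members, 83.2, 70.7, 76.6, 68.3, 84.8 and 78.6%. Lyve1 without Fcna was found in 11.1, 11.1, 13, 6.82, 8.45 and 14.3% and Fcna without Lyve1 in 5.64, 18.3, 10.4, 24.9, 6.79 and 7.14%, so that Fcna alone was the more frequent in young replicate 2 and old replicate 2 and Lyve1 alone in the other 4 rats. The limit of 2 UMIs cut a gradient. Macrophages with 1 UMI, just outside it, had 442, 199, 97, 336 and 68.4 CPM of Cd163 in the 5 rats other than HFHF-old replicate 2. Those with 2 UMIs, just inside, had 808, 259, 214, 557 and 92.4 CPM, and those with over 10 UMIs had 2056, 1576, 1719, 1265 and 2188 CPM. The scavenging receptor Mrc1 (mannose receptor) went from 1052, 505, 463, 832 and 169 CPM at 1 UMI to 3042, 2537, 2273, 1804 and 2561 CPM above 10 UMIs. Cd74, the invariant chain of MHC class II, was lower above 10 UMIs (1424, 1543, 1937, 832 and 969.7 CPM) than at 1 UMI (6487, 3927, 8237, 6932 and 1969 CPM). It did not fall at the limit itself. At 2 UMIs it was at 6554, 3955, 10279, 6565 and 2036 CPM, above the level at 1 UMI except in old replicate 2. In HFHF-old replicate 1 it was at 2610 CPM at 6 to 10 UMIs, so it fell only in the cells richest in Lyve1 and Fcna. In HFHF-old replicate 1, cells with 2 UMIs had Cd163 and F13a1 (92.4 and 71.0 CPM) near those of cells with none (55.9 and 44.5 CPM), and cells with over 10 UMIs were 2921 of its 5315 members. The members therefore range from cells with little of the marker genes to cells rich in them, and whether the former took up free RNA was not tested.

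**Figure D1:**
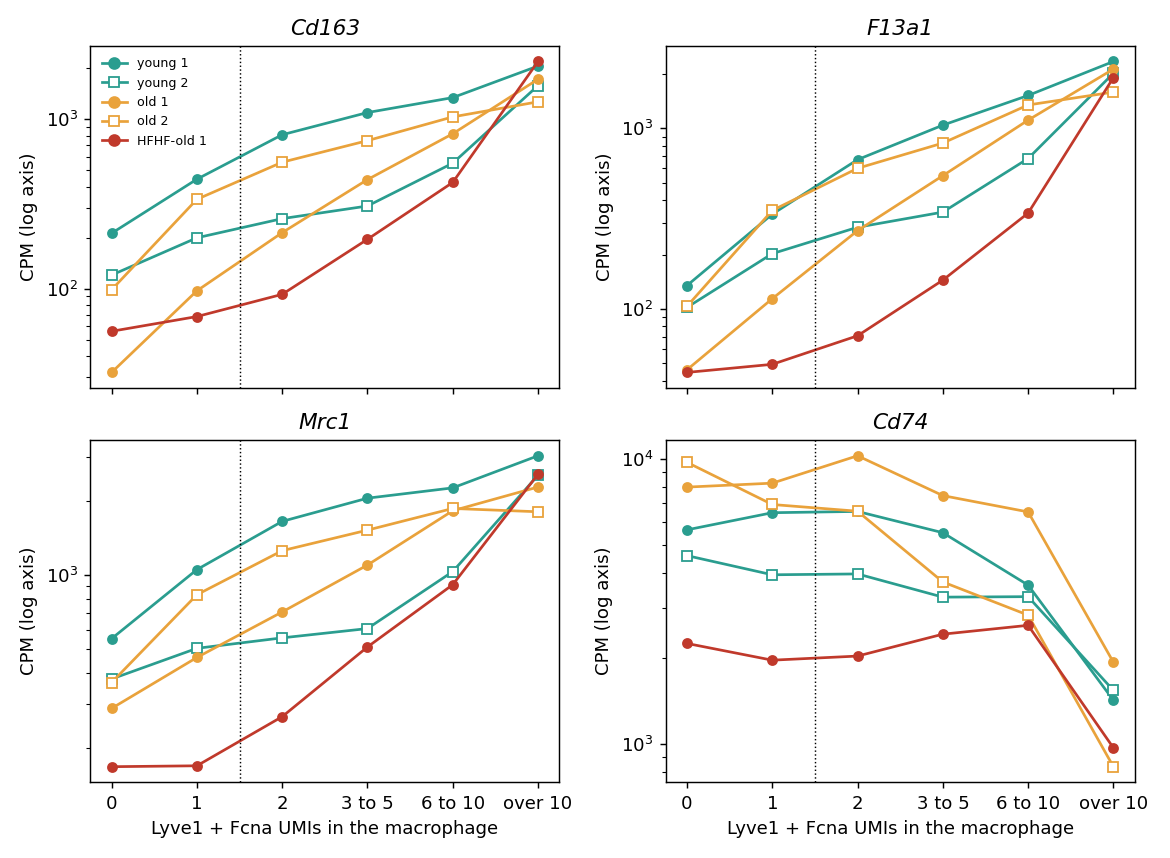
CPM (log axis) of Cd163, F13a1, Mrc1 and Cd74 in macrophages grouped by their UMIs of Lyve1 and Fcna, with 1 line for each rat other than HFHF-old replicate 2 and a dotted line at the limit for members. Cd163, F13a1 and Mrc1 are highest above 10 UMIs in each rat except Mrc1 in old replicate 2, and Cd74 is lowest there in the 5 rats.

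The share of macrophages that were members was lower in both old rats than in both young rats, without a test that could pass. It was 71.3, 56.9, 50.9, 39.7, 62.9 and 18.9%. The other macrophages counted in HFHF-old replicate 1 held macrophage genes near the level of its non-macrophages. The exact 95% intervals for counting error alone were narrow in 5 rats (70.2% to 72.3% in young replicate 1) and wide in HFHF-old replicate 2 (10.7% to 29.7%). The mean was 64.1% ± 10.1 (SD, n = 2) in young, 45.3% ± 7.87 (n = 2) in old and 40.9% ± 31.1 (n = 2) in HFHF-old rats. Old minus young was -18.8 percentage points with a two-sided exact permutation p of 0.333, which is the smallest that 2 against 2 rats allow. With at least 4 UMIs of Lyve1 and Fcna required it was -12.1 points (exact permutation p = 0.667), where young replicate 2, at 32.0%, lay below old replicate 1, at 38.0%. It was -11.9 points in thinned cells (exact permutation p = 1) and -11.6 points without young replicate 1. HFHF-old minus old was -4.40 points (exact permutation p = 1) and HFHF-old minus young -23.2 points (exact permutation p = 0.667), and in both the groups overlapped. The latter was -13.1 points with at least 4 UMIs and -9.33 points in thinned cells. Without HFHF-old replicate 2, HFHF-old minus old was 17.6 points and HFHF-old minus young -1.22 points.

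The share was lower in thinned cells in 5 of 6 rats. After each cell was thinned to 1500 UMIs and shallower cells were left out, it was 62.5, 31.5, 36.7, 33.5, 63.1 and 12.2%, and young replicate 2 lay below both old rats. In the same cells before thinning it was 74.2, 60.3, 52.7, 44.2, 66.8 and 19.1%, an alternative chosen after seeing the data, with both young rats above both old rats. As a background, 5.15, 4.82, 3.93, 1.53, 10.2 and 0.0668% of T cells passed the limit of 2 UMIs before thinning and 1.04, 2.08, 0.384, 0.295, 1.45 and 0% after it. Thinning left out 2201, 1700, 714, 5638, 1724 and 479 kept cells. In HFHF-old replicate 2, 1 of 1498 T cells passed before thinning and 0 of 944 after it, which allows a share of up to 0.318%. The lowest share of members, in HFHF-old replicate 2, was still far above its own T cells. The highest T cell background before thinning was that of HFHF-old replicate 1. After thinning, 2 of 96 T cells passed in young replicate 2 and 4 of 276 in HFHF-old replicate 1, too few to rank the rats.

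Of all kept cells, 30.8, 28.2, 16.7, 9.38, 42.5 and 0.119% were members. Both young rats were above both old rats (29.5% ± 1.83 against 13.03% ± 5.17, SD, n = 2 each, exact permutation p = 0.333), while the HFHF-old rats held the highest and the lowest share of the 6. In thinned cells it was 23.8, 12.8, 9.46, 8.72, 26.1 and 0.0533%, in the same order between young and old rats, and old minus young went from -16.4 to -9.24 points (-10.7 with at least 4 UMIs of Lyve1 and Fcna required) and HFHF-old minus old from 8.27 to 3.98 points. The scatter between the 2 HFHF-old rats (SD 29.96 points, n = 2) exceeded each difference between group means, and without replicate 2 HFHF-old minus old was 29.5 points and HFHF-old minus young 13.005 points.

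**Figure D2:**
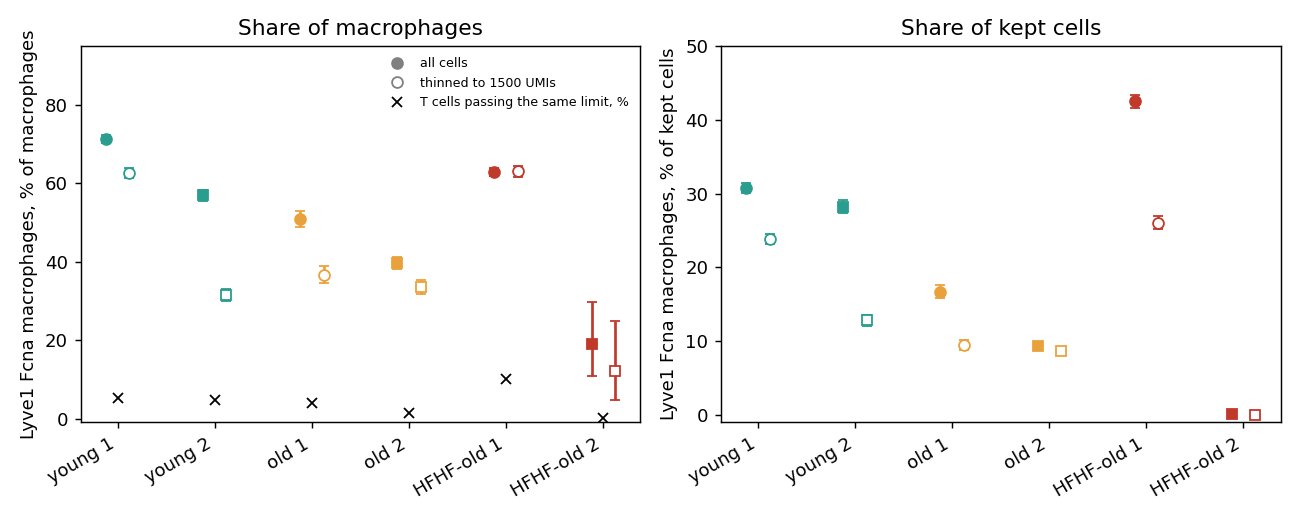
Share of macrophages (left) and of kept cells (right) that were Lyve1 Fcna macrophages in each rat, in percent. Filled symbols are all cells, open symbols cells thinned to 1500 UMIs, error bars exact 95% intervals and crosses the percentage of T cells that pass the same limit of 2 UMIs, with HFHF-old replicate 2 at 18.9% of macrophages and 0.119% of kept cells.

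Compared with other macrophages of the same rat, 49 of 6425 genes with a mean of at least 20 CPM (0.763%) were at least 2-fold higher in the members in all 6 rats, and 3 (0.0467%) were at least 2-fold lower. The rule drew this contrast, so these are descriptions without a test, given as log2 ratios of CPM + 1 within a rat, and the 11 genes of the rule are left out. Without the 14 cells of HFHF-old replicate 2, 69 genes (1.07%) were higher and 3 (0.0467%) lower in the remaining 5 rats. In thinned cells of these 5 rats the counts were 60 and 51, so the excess of higher over lower genes was far smaller there. Of the 12 genes with the largest smallest ratio, Pdpn (podoplanin, a mucin-like glycoprotein that lymphatic endothelium carries too) led with 196, 71.6, 214, 269, 361 and 204 CPM in members against 24.8, 10.3, 16.1, 15.3, 72.5 and 3.97 CPM in other macrophages. F13a1 had log2 ratios of 3.04, 2.17, 4.29, 2.81, 4.61 and 3.95, and Cd163 had 2.40, 1.81, 4.32, 2.59, 4.42 and 6.67. Young replicate 2 had the lowest ratio of the 6 rats for both, at 2.17 and 1.81. Ratios of HFHF-old replicate 1 are against other macrophages with 1256 CPM of the macrophage genes of the rule, near its non-macrophages (1190 CPM).

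Several of the other genes encode secreted proteins. Cfd, the complement protease factor D, was at 1119.7, 551, 2288, 3136, 1138 and 2339 CPM in members (log2 ratios 1.86 to 4.08). Ccl7, which attracts monocytes, had ratios of 1.96 to 4.98, and Ccl24, which attracts eosinophils, 1.75 to 6.28. Selenop, the selenium carrier of plasma, had 1.65 to 3.07. Hpse (heparanase, which cuts heparan sulphate in the matrix) had 2.00 to 5.08, Erbb3 (a receptor kinase for neuregulins) 1.65 to 3.60 and Mctp2 (a membrane protein with C2 domains) 1.69 to 3.65. The list also held NEWGENE_620180 (2.19 to 4.83) and AABR07050652.1 (1.86 to 3.65), for which the files give no other name. The 3 lower genes were Spn (the sialoprotein CD43, -1.87 to -1.03), Mmp12 (macrophage elastase, -3.83 to -1.05 in the 5 rats other than HFHF-old replicate 2) and Pmepa1 (a brake on TGF-beta signalling, -1.71 to -1.001 in the same 5 rats). Mmp12 and Pmepa1 had 0 UMIs in the 14 members of HFHF-old replicate 2, so no ratio is given there.

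**Figure D3:**
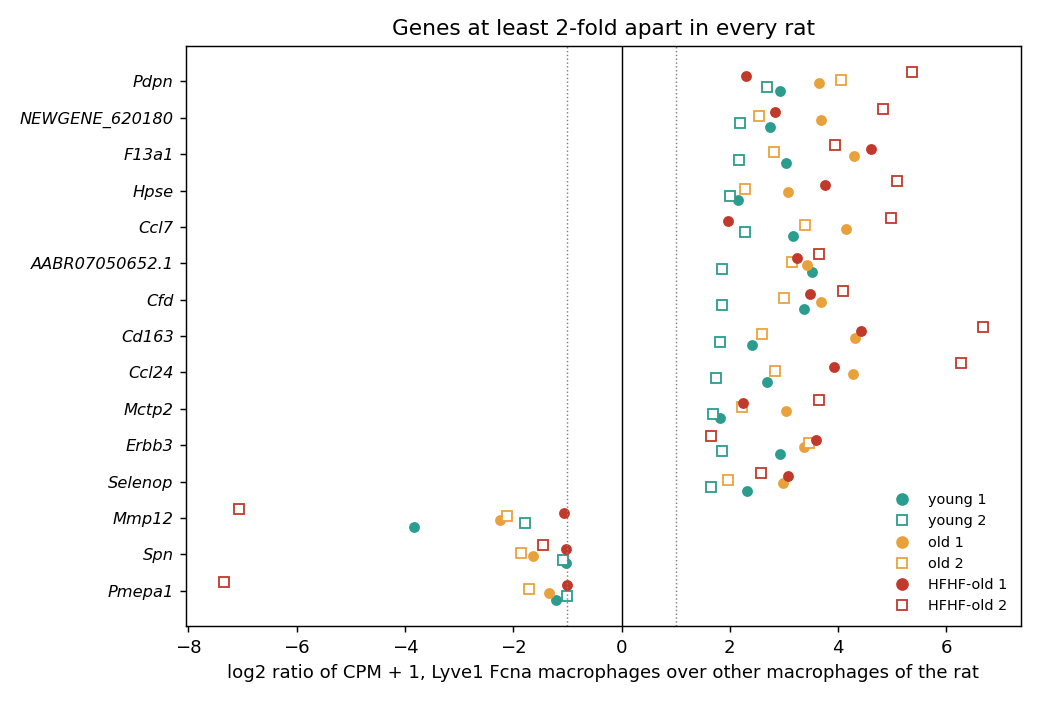
Log2 ratio of CPM + 1 in Lyve1 Fcna macrophages over other macrophages for the 12 higher and 3 lower genes, with 1 symbol for each rat and dotted lines at 2-fold. The higher genes lie between 1.65 and 6.67, and HFHF-old replicate 2, with 14 members, gives the highest value for 9 of them, Cd163 and Ccl24 among these, while its symbols for Mmp12 and Pmepa1 rest on 0 UMIs and the pseudocount of 1 CPM.

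Gene groups divided the 2 populations unevenly. Of 22 compared genes of macrophage residence, 13 were at least 2-fold higher in members in all 6 rats and none lower, with a median log2 ratio of 1.95 against 0.03 over all 6425 genes, and the list was chosen with earlier results of these data known. Mrc1 had ratios of 1.77, 1.18, 2.32, 1.77, 3.33 and 2.53, Folr2 (folate receptor beta) 2.11, 1.25, 2.40, 1.71, 3.13 and 1.96 and Stab1 (stabilin-1, a scavenger receptor) 1.90, 1.32, 2.97, 1.59, 3.76 and 4.03. Igf1, a growth factor many tissue macrophages release, was less apart, from 0.34 to 2.11.

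Haem handling stood higher in the members, with 4 of 11 genes at least 2-fold higher in all 6 rats and a median ratio of 1.01. These were Cd163, Hmox1 (haem oxygenase 1, 1.10 to 3.13) and the biliverdin reductases Blvra (1.36 to 2.13) and Blvrb (1.35 to 2.76). Among lipid and lysosomal genes, 2 of 23 were at least 2-fold higher, Apoe (apolipoprotein E, 6849.7, 2825, 14219.6, 18642, 7903 and 4132 CPM in members, ratios 1.47 to 5.83) and Ctsb (the protease cathepsin B, 1.21 to 3.07), at a list median of 0.12. Among complement and efferocytosis genes, 2 of 19 were, Cfd and Stab1, and Axl, a receptor for dying cells, was lower in members in 6 of 6 rats (-1.55 to -0.45) while its relative Mertk was higher (0.73 to 2.43).

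Genes of MHC class II presentation, a list of class II chains with Cd74, Ciita, Cd40, Cd80 and Cd86, lay on the other side without reaching 2-fold in every rat. The median ratio of 9 compared genes was -0.60, and Cd74 had -0.92, -0.45, -0.66, -1.58, -0.44 and -0.16. RT1-Ba, an alpha chain of rat class II, had -0.94, -0.52, -0.65, -1.54, -0.54 and -0.05, so both were lower in members in 6 of 6 rats, least so in HFHF-old replicate 2. Of 20 chemokine genes, Ccl7, Ccl24 and Pf4 were at least 2-fold higher in all 6 rats, and Ccr1 in the 5 rats other than HFHF-old replicate 2. Of 17 genes of growth factors and matrix, Pdgfc (1.59 to 3.39) and Tgfbi (1.16 to 2.83) were higher and Mmp12 lower. No gene of the interferon (17 compared), inflammatory (13), proliferation (6) or immediate early (18) lists was 2-fold apart in all 6 rats. Their medians were -0.02, 0.19, -0.49 and 0.46. Over all genes compared, 0.763% were that much higher and 0.0467% lower, so short lists without such a gene say little. Within the inflammatory list, Clec7a had -1.39, -1.29, -1.01, -1.14, 0.63 and -1.56, lower in members except in HFHF-old replicate 1. Tlr2 was higher in members in 6 of 6 rats (0.54 to 1.87).

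With age on the normal diet, 1 of 14624 genes tested passed in the members (0.00684% of genes higher, 0% lower). The test was edgeR's quasi-likelihood test on summed UMIs per rat, with limits of an adjusted p under 0.05 and a fold over 1.5, and levels between groups are CPM scaled by trimmed mean of M-values (TMM) factors. Because the labels name 2 rats a group and no more, p-values rest on the spread of these few rats, pooled over the 3 groups and shared in part between genes. The gene was AC127784.2, for which the files give no other name, at 0.183 and 0.0674 CPM in the young rats, 18.9 and 17.1 in the old rats and 15.4 and 11.8 in the HFHF-old rats (log2 fold change 6.94, SE 0.57, adjusted p = 0.0244). All 4 rats of 20 months were above both young rats, but the 11.8 CPM of HFHF-old replicate 2 rest on few UMIs (1 UMI is 5.88 CPM). Kept cells that were no macrophages showed the same step, with 0.117 and 0.113 CPM in young, 28.2 and 20.2 in old and 15.6 and 21.9 in HFHF-old rats (plain CPM, as for all values of non-macrophages), so the step was not limited to the members. Its adjusted p was 0.0647 without young replicate 2, 0.119 without HFHF-old replicate 1 and 0.0872 without HFHF-old replicate 2, which enter the shared estimate of the spread, and 0.0664 with no filter on low counts. Its adjusted p ran from 2.61e-11 with DESeq2 to 0.125 with the 2 groups alone. In all, 810 genes had an unadjusted p under 0.05.

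The other genes of smallest p did not pass and are given by their values. Dlg2, a scaffold protein of cell junctions and synapses, was at 13.9 and 12.7 CPM in the young rats, 116 and 117 in the old rats and 121 and 76.5 in the HFHF-old rats (log2 fold change 3.13, SE 0.33, adjusted p = 0.0786). Both old rats and both HFHF-old rats were above the young ones, and cells that were no macrophages were at 43.3 and 25.4 CPM in young, 43.7 and 45.3 in old and 66.8 and 10.1 in HFHF-old rats, where old was less than 2-fold above young. Slc13a3, a carrier of dicarboxylates such as succinate, was at 5.32 and 2.76 CPM in the young rats, 94.4 and 34.4 in the old rats and 21 and 11.8 in the HFHF-old rats (log2 fold change 3.98, SE 0.57, adjusted p = 0.227). Old rats were highest, HFHF-old rats lay between (11.8 CPM in replicate 2, where 1 UMI is 5.88 CPM), and non-macrophages stayed at 0.139 to 4.79 CPM. Igh-6, the heavy chain of IgM made by B cells and plasma cells, was at 0.183 and 0.0674 CPM in the young rats, 7.13 and 18.5 in the old rats and 0.747 and 0 in the HFHF-old rats (log2 fold change 6.46, SE 0.81, adjusted p = 0.205), and AABR07054597.1 at 0.0306 and 0 CPM in young and 3.27 and 1.99 in old rats. For Igh-6, non-macrophages of old replicate 2 held 289.5 CPM, far above its members. The summed level of 4 other B cell genes in members was 7.51 and 4.41 CPM in young and 2.91 and 3.20 in old rats, lower in both old rats. That of 4 plasma cell genes was 24.4 and 12.1 CPM in young, 34.2 and 34.8 in old and 25.3 and 21.9 in HFHF-old members and 58.5 and 32.1, 274 and 358, and 48.6 and 32.3 CPM in non-macrophages, highest in both old rats in each. The part of B cell and plasma cell RNA in Igh-6 was not tested. Without mixed members (those with at least 2 detected B cell genes, or 3 of fibroblasts, blood endothelium or mast cells), Igh-6 had 0 UMIs in both young rats and 91 and 111 in the old rats and passed (adjusted p = 0.0402), as it did without old replicate 1 (0.0296) and with DESeq2 (1.71e-04). Of the 19 alternatives run, Dlg2 passed in 5 (adjusted p = 6.01e-08 with DESeq2 and 0.00659 without mixed members) and Slc13a3 in 5 (1.75e-05 with DESeq2, 0.0278 with the replicate number as a block and 0.0495 without mixed members).

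Genes of smallest p that were lower in old members came with higher levels in cells that were no macrophages. Gata3, the transcription factor of type 2 lymphocytes, was at 53.9 and 39.7 CPM in the young rats, 5.46 and 3.48 in the old rats and 6.29 and 0 in the HFHF-old rats (log2 fold change -3.36, SE 0.45, adjusted p = 0.227), and non-macrophages held 91.8 and 77.5 CPM in young, 30.03 and 28.8 in old and 36.3 and 95.8 in HFHF-old rats. Il9r was at 4.46 and 3.64 CPM in young and 0.133 and 0.166 in old members and at 7.18 and 6.7 CPM in young and 1.34 and 0.602 in old non-macrophages. The same order held for Il17rb, like Il9r a cytokine receptor of type 2 lymphocytes (3.58 and 6.88 CPM in young and 0.2 and 0 in old members), and for Ccl1, a chemokine of activated T cells and mast cells (3.76 and 12.7 CPM in young and 0.2 and 0 in old rats). Gpihbp1, the endothelial anchor of lipoprotein lipase, was at 9.53 and 60.7 CPM in young and 0.733 and 1.16 in old members and at 64.3 and 66.4 CPM in young and 13.4 and 20.7 in old non-macrophages. The summed level of 5 mast cell genes in members was 23.8 and 40.9 CPM in young and 6.78 and 14.5 in old rats, that of 6 genes of blood endothelium 225 and 213 against 122 and 164, and that of 4 genes of T cells 69.2 and 54.6 against 52.5 and 39.6. The T cell list has 7 genes, of which the rule sets Cd3d, Cd3e and Cd3g to 0 in members. In non-macrophages it was higher with age, at 207 and 188 CPM in young and 459 and 421 in old rats. Genes of NK cells (6) summed in members to 288 and 358 CPM in young and 314 and 163 in old rats. Gata3, Il9r, Il17rb, Ccl1 and Gpihbp1 were apart between the groups, none passed (adjusted p = 0.227 to 0.351), and the part of RNA from other cells in them was not tested. Gata3 and Gpihbp1 passed in 2 alternatives each.

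Ltc4s and Olr1 differed from those genes in being higher in members than in non-macrophages of 6 of 6 rats. Ltc4s, leukotriene C4 synthase, was at 353 and 412 CPM in the young rats, 140.2 and 97.7 in the old rats and 53.5 and 70.6 in the HFHF-old rats (log2 fold change -1.68, SE 0.35, adjusted p = 0.399), lower in both old rats and lowest in the HFHF-old rats. Olr1, the receptor LOX-1 for oxidised low-density lipoprotein, was at 7.03 and 9.17 CPM in the young rats, 31.4 and 38.1 in the old rats and 82.1 and 141 in the HFHF-old rats (log2 fold change 2.10, SE 0.36, adjusted p = 0.351), with the 3 groups in 3 separate ranges. Other macrophages showed the same order with age: Olr1 was at 20.5 and 16.1 CPM in young and 73.5 and 52.5 in old rats (log2 difference 0.34, SE 0.32, adjusted p = 0.869 for the interaction described last) and Ltc4s at 70.5 and 156 and 22.5 and 30.7 CPM (log2 difference 0.31, SE 0.40, adjusted p = 0.908). Olr1 was lower in members than in other macrophages in 5 of 6 rats (log2 ratios -1.57, -0.80, -1.25, -0.52, 0.87 and -1.57), whereas Ltc4s was at least 2-fold higher in members in 6 of 6. Il1b, the inflammatory cytokine interleukin-1 beta, was at 62.2 and 33.2 CPM in the young rats, 314 and 300.003 in the old rats and 56.8 and 141 in the HFHF-old rats (log2 fold change 2.68, SE 0.50, adjusted p = 0.37), highest in the 2 old rats. Other macrophages showed the same order with age for Il1b too, at 37.0 and 47.8 CPM in young and 220 and 272 in old rats (log2 difference 0.20, SE 0.39, adjusted p = 0.954 for the same interaction). None of the 3 passed, and Olr1 and Il1b did so in 3 alternatives each.

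Gene lists are described by how many genes had both old rats on one side of both young rats, which held for 18.2% of all genes tested (higher) and 18.1% (lower). In 21 inflammatory genes, 13 were higher and 1, Tnf, was lower (median log2 fold change 0.69 against -0.03 over all genes). Clec7a, the beta-glucan receptor dectin-1, was at 39.2 and 56.6 CPM in young and 149 and 164 in old rats, and Osm (oncostatin M) at 12.9 and 11 CPM in young and 27.5 and 26.2 in old rats. Other macrophages held Clec7a at 94.8 and 133 CPM in young and 292 and 344 in old rats. In 25 chemokine genes, 12 were higher and 2 lower (median 0.38), among them Ccl7 at 385 and 222 CPM in young and 518 and 697 in old rats. Immediate early genes, which rise when tissue is dissociated, went with these lists: 9 of 19 were higher and 1 lower (median 0.57), with Atf3 at 244 and 84.6 CPM in young and 369.5 and 492 in old rats. No gene of the lists passed the test in this comparison, and the part of dissociation in the inflammatory genes was not tested.

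In 12 genes of MHC class II presentation, 7 were higher in both old rats and none lower, with a median of 0.94. These were the class II chains RT1-Ba, RT1-Bb, RT1-Db1 and RT1-DOb, and Cd80, Cd86 and Cd40, which are no class II chains. RT1-Bb, a class II beta chain, was at 23.9 and 33.2 CPM in the young rats, 1683 and 571 in the old rats and 29.7 and 288 in the HFHF-old rats (log2 fold change 5.30, SE 1.08, adjusted p = 0.399), whereas RT1-Ba, the alpha chain of the same molecule, was at 549 and 829 CPM in the young rats, 1655 and 893 in the old rats and 375 and 3465 in the HFHF-old rats. RT1-Bb was thus near RT1-Ba in the old rats and far below it in the young and HFHF-old rats, and non-macrophages showed the same order for RT1-Bb, at 24.7 and 18.6 CPM in young, 926 and 513 in old and 26.1 and 14.1 in HFHF-old rats. Other macrophages held RT1-Bb at 38.1 and 46.4 CPM in young and 2678 and 1566 in old rats. RT1 genes are alike in sequence and differ between animals, so the counts of a given RT1 gene are uncertain. Proliferation genes lay lower, with 12 of 14 below both young rats in both old rats and none above (median -1.55), as Mki67 with 27.2 and 89.3 CPM in young and 25.1 and 6.62 in old rats. In other macrophages Mki67 had the same order with age, at 56.1 and 78.9 CPM in young and 42.9 and 33.4 in old rats. Its log2 difference was -0.91 (SE 0.54, adjusted p = 0.813 for the interaction described last). Cdk1, Ccnb1, Ccna2, Cenpf and Mcm2 were likewise lower in other macrophages of both old rats. For Pcna and Stmn1, young and old other macrophages overlapped in plain CPM.

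Residence genes were mixed, with 9 of 25 higher and 1 (Ltc4s) lower in both old rats, at a median of 0.17. Cd163 was at 1406 and 772 CPM in the young rats, 1033 and 1034 in the old rats and 1302 and 571 in the HFHF-old rats, and F13a1 at 1547 and 938 CPM in the young rats, 1296 and 1259.8 in the old rats and 1127 and 482 in the HFHF-old rats. Young and old rats overlapped in both genes, while F13a1 was lower in both HFHF-old rats than in both old rats. Cd209f was at 30.9 and 37.3 CPM in the young rats, 80.6 and 82.5 in the old rats and 16.4 and 0 in the HFHF-old rats (log2 fold change 1.26, SE 0.44, adjusted p = 0.722). Of 24 lipid and lysosomal genes, 11 were higher and 2 lower (median 0.32), with Apoe at 6016 and 3975 CPM in the young rats, 13697 and 20284 in the old rats and 7596 and 3336 in the HFHF-old rats and Soat1, which esterifies cholesterol, at 64.1 and 56.2 CPM in young and 168 and 169 in old rats. Other macrophages held Soat1 at 54.0 and 55.5 CPM in young and 155 and 185 in old rats. Of 22 complement and efferocytosis genes, 8 were higher and 4 lower (median 0.11), with C2 at 11.6 and 10.1 CPM in young and 29.7 and 25.8 in old rats and Cfd at 983 and 775 CPM in young and 2204 and 3413 in old rats. Haem and iron genes (4 of 14 higher, 0 lower), transcription factors (9 of 22, 0), interferon genes (6 of 20, 1), genes of oxidative stress (5 of 25, 3) and growth factors and matrix (3 of 25, 7) made up the rest.

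**Figure D4:**
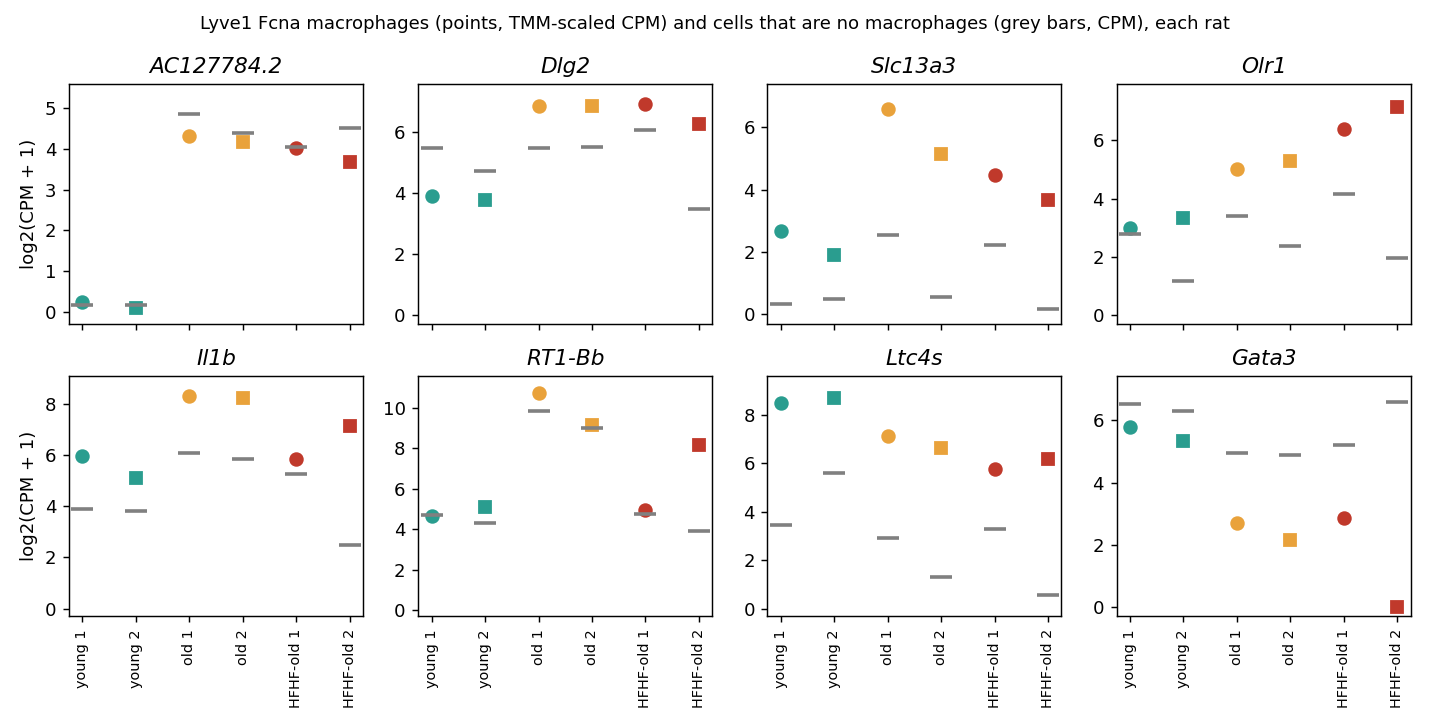
Levels of 8 genes as log2(CPM + 1) in each rat, with points for Lyve1 Fcna macrophages (TMM-scaled) and grey bars for kept cells that were no macrophages (plain CPM). AC127784.2 steps up with age in both, Dlg2, Slc13a3 and Olr1 differ between young and old members more than between their non-macrophages, Ltc4s is higher in members than in non-macrophages of each rat, and Gata3 is higher in non-macrophages of each rat.

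Between the diets at 20 months, 0 of 14624 genes passed in edgeR's quasi-likelihood test (0%, smallest adjusted p = 0.863), 774 had an unadjusted p under 0.05, and DESeq2 called 3. The HFHF-old side of this comparison held 5315 cells of replicate 1 and 14 of replicate 2, whose libraries also differed in islet genes (61018 against 21.9 CPM in members). The 3 genes DESeq2 called were Fn1, RT1-A1 and Tppp3. Fn1, the matrix protein fibronectin, was at 271 and 177 CPM in the young rats, 138 and 111 in the old rats and 509 and 1312 in the HFHF-old rats (log2 fold change 2.86, SE 0.55, adjusted p = 0.873 in edgeR's test), highest in the 14 cells of HFHF-old replicate 2. RT1-A1, a class I MHC gene, was at 357 and 337 CPM in the young rats, 1148 and 1037 in the old rats and 144 and 282 in the HFHF-old rats (log2 fold change -2.40, SE 0.47, adjusted p = 0.873), and non-macrophages followed it with 175 and 131 CPM in young, 825 and 535 in old and 132 and 293 in HFHF-old rats. Tppp3, which promotes the polymerisation of tubulin, was at 18.9 and 26.3 CPM in the young rats, 16.5 and 13.4 in the old rats and 94.2 and 64.7 in the HFHF-old rats (log2 fold change 2.48, SE 0.35, adjusted p = 0.863), above the other 4 rats in both HFHF-old rats. In non-macrophages Fn1 was at 1467 and 204 CPM in young, 431 and 254 in old and 1174 and 121 in HFHF-old rats, and Tppp3 at 59.2 and 20.3 CPM in young, 34.5 and 20.8 in old and 144 and 4.71 in HFHF-old rats. Other macrophages of HFHF-old replicate 1 held more of both than its members, 1388 CPM of Fn1 and 153 CPM of Tppp3, and 6 fibroblast genes in its members summed to 3651 CPM, against 1159 and 460 CPM in old members and 29.2 CPM in those of HFHF-old replicate 2. Their part in Fn1 was not tested.

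Other genes of smallest p in this comparison were AABR07054614.1 (12.3 and 9.11 CPM in old and 53.7 and 52.9 in HFHF-old rats), Kctd4 (0.267 and 0.166 CPM in old and 7.47 and 5.88 in HFHF-old rats), Ccnb1, the cyclin of mitotic entry (2.67 and 1.32 CPM in old and 21.8 and 17.6 in HFHF-old rats), and LOC683849 (0.6 and 0.166 CPM in old and 352 and 0 in HFHF-old rats). The values of HFHF-old replicate 2 for Kctd4 and Ccnb1 are 1 and 3 UMIs. Lower in HFHF-old rats were Lcn2, the iron-siderophore carrier lipocalin-2 (5 and 10.8 CPM in old and 0.238 and 0 in HFHF-old rats), Cd209f (80.6 and 82.5 CPM in old and 16.4 and 0 in HFHF-old rats), Myoc (3 and 4.3 CPM in old and 0.184 and 0 in HFHF-old rats) and AABR07069913.1 (1.27 and 0.497 CPM in old and 0.0217 and 0 in HFHF-old rats). A 0 in HFHF-old replicate 2 allows up to 17.6 CPM, so for Lcn2, Myoc and AABR07069913.1 it sets no order. Vsig4, a complement receptor of tissue macrophages, was at 2.41 and 1.48 CPM in the young rats, 3.27 and 2.81 in the old rats and 46.2 and 0 in the HFHF-old rats, high in 1 rat of the 6, beside a 0 that allows up to 17.6 CPM.

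Of all genes tested, 10.5% were higher and 23.2% lower in both HFHF-old rats than in both old rats. Higher genes that rest on few UMIs in HFHF-old replicate 2, where 1 UMI is 5.88 CPM, were not counted apart, so their order is uncertain. The lower genes include 1320 of 3399 with a 0 in HFHF-old replicate 2 whose floor of 17.6 CPM reaches the old rats, so that no order can be read, and without them 14.2% were lower. Residence genes had 1 of 25 higher (Cd38) and 14 lower, with a median log2 fold change of -0.65 against -0.02 over all genes. Mrc1 was at 2242 and 1394 CPM in the young rats, 1654 and 1786 in the old rats and 1636 and 771 in the HFHF-old rats and Pf4 (platelet factor 4) at 744 and 678 CPM in the young rats, 1029 and 2557 in the old rats and 829 and 429 in the HFHF-old rats. Chemokine genes had 2 of 25 higher and 12 lower (median -0.48, 10 without such zeros), with Ccl24 at 572 and 522 CPM in the young rats, 577 and 871 in the old rats and 217 and 435 in the HFHF-old rats. Interferon genes had 0 of 20 higher and 9 lower (median -0.51, 8 without such zeros), and inflammatory genes 0 of 21 higher and 8 lower (median -0.04), of which Il1b was at 56.8 and 141 CPM in HFHF-old and 314 and 300.003 in old rats. No gene of the lists passed the test.

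Lipid and lysosomal genes had 6 of 24 higher and 4 lower (median 0.31). The lower genes were Trem2, a lipid-sensing receptor (148 and 370.4 CPM in old and 105 and 76.5 in HFHF-old rats), Apoe, Soat1 (168 and 169 CPM in old and 120.00 and 47.1 in HFHF-old rats) and the protease cathepsin S, Ctss (372 and 344 CPM in old and 201 and 312 in HFHF-old rats). Cd36, the fatty acid and lipoprotein scavenger, was at 187 and 88.1 CPM in the young rats, 108 and 187 in the old rats and 214 and 212 in the HFHF-old rats, and Lipa, the lysosomal lipase, at 82.2 and 49.7 CPM in the young rats, 86 and 76.3 in the old rats and 170.2 and 171 in the HFHF-old rats. Both HFHF-old rats were above both old rats for these 2 of the 6 genes. Proliferation genes had 4 of 14 higher and 0 lower (median 1.92), and Mki67 was at 179 CPM in HFHF-old replicate 1 and 29.4, 5 UMIs, in replicate 2. Ccnb1, another of the 4, rests on few UMIs in replicate 2 too. Genes of MHC class II presentation had 0 of 12 higher and 3 lower (median -0.36), of which 1 is left without RT1-DMb and Cd80, whose 0 sets no order. Haem and iron genes had 0 of 14 and 4 (3 without Lcn2), complement and efferocytosis genes 4 of 22 and 7, growth factors and matrix 4 of 25 and 3 (2 without Mmp12), oxidative stress 0 of 25 and 4, immediate early genes 2 of 19 and 3, and transcription factors 3 of 22 and 3.

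HFHF-old and young rats, which differ in age and diet, gave 1 call among 14624 genes, again AC127784.2 (log2 fold change 6.65, SE 0.58, adjusted p = 0.0407 in edgeR's quasi-likelihood test, 0.00684% of genes higher and 0% lower). Its adjusted p was 0.103 without young replicate 2, 0.325 without HFHF-old replicate 1, 0.0673 without HFHF-old replicate 2, 0.103 with no filter on low counts and 0.0600 with the replicate number as a block. The comparison shares its young rats with that of old against young and its HFHF-old rats with that of the diets, so its values are set beside them and not counted as further support. The 11.8 CPM of AC127784.2 in HFHF-old replicate 2 rest on few UMIs, as 1 UMI is 5.88 CPM. Next by p were Olr1 (log2 fold change 3.69, SE 0.39, adjusted p = 0.0897), Dlg2 (log2 fold change 2.97, SE 0.33, adjusted p = 0.0897) and Hsph1, a heat shock protein of the HSP110 family, at 79.5 and 49.1 CPM in the young rats, 174 and 199 in the old rats and 604 and 406 in the HFHF-old rats (log2 fold change 2.99, SE 0.42, adjusted p = 0.193), and AABR07054614.1 at 10.4 and 10.6 CPM in young and 53.7 and 52.9 in HFHF-old rats. Both HFHF-old rats were above both young rats for these 4 genes. Hsph1 was also higher in both old rats than in both young rats, and non-macrophages held 118 and 32.1 CPM in young, 148 and 107 in old and 419.6 and 128 in HFHF-old rats.

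On the lower side stood Ltc4s (log2 fold change -2.69, SE 0.38, adjusted p = 0.193), the smooth muscle genes Acta2 (52 and 81.5 CPM in young and 2 and 0 in HFHF-old rats) and Mylk (45 and 42.9 CPM in young and 6.99 and 5.88 in HFHF-old rats) and Gzma (granzyme A of lymphocytes, 55.7 and 187 CPM in young and 7.25 and 5.88 in HFHF-old rats). For Mylk and Gzma the 5.88 CPM of HFHF-old replicate 2 is 1 UMI. Srl, sarcalumenin of muscle, was among the genes of smallest p too (1.62 and 2.09 CPM in young and 0.0217 and 0 in HFHF-old rats), but its 0 in HFHF-old replicate 2 allows up to 17.6 CPM and sets no order. Of the 19 alternatives run, Olr1 passed in 8, Dlg2 and Acta2 in 6, Ltc4s in 4, Hsph1 and Gzma in 3 and Mylk and AABR07054614.1 in 1. In non-macrophages Acta2 was at 72.4 and 91.3 CPM in young, 9.09 and 72.7 in old and 5.44 and 1.68 in HFHF-old rats and Gzma at 234 and 319.9 CPM in young, 53.9 and 69.96 in old and 45 and 735 in HFHF-old rats. The summed level of 6 genes of smooth muscle and pericytes in members was 344 and 360 CPM in young, 36.3 and 136 in old and 34.0 and 0 in HFHF-old rats, and its part in Acta2 and Mylk was not tested.

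Over all genes, 13.6% were higher and 24.7% lower in both HFHF-old rats than in both young rats, or 14.7% lower without the 1459 genes whose 0 in HFHF-old replicate 2 sets no order. Higher genes with few UMIs in HFHF-old replicate 2 were not counted apart here either. Of 24 lipid and lysosomal genes 7 were higher and 1 lower (median 0.46), and of 25 residence genes 0 were higher and 7 lower (median -0.46), including Maf, a transcription factor of the macrophage lineage, at 343 and 155 CPM in the young rats, 157 and 139.9 in the old rats and 129 and 58.8 in the HFHF-old rats. Chemokine genes had 3 of 25 higher and 6 lower, inflammatory genes 3 of 21 and 0, immediate early genes 6 of 19 and 0, interferon genes 0 of 20 and 4, growth factors and matrix 5 of 25 and 1, and proliferation genes 1 of 14 and 0. The remaining lists were MHC class II presentation (1 of 12 higher, 1 lower), complement and efferocytosis (5 of 22, 4), haem and iron (2 of 14, 5), oxidative stress (1 of 25, 4) and transcription factors (5 of 22, 5). Such zeros account for 2 of the 6 lower chemokine genes, and for 1 lower gene each in MHC class II presentation, complement and efferocytosis, haem and iron, and growth factors and matrix.

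Whether the members changed with age otherwise than the other macrophages of the same rats was tested as an interaction of age and population with the rat as a block, on CPM scaled over both populations together. Of 14640 genes 0 passed in edgeR's quasi-likelihood test (0%, smallest adjusted p = 0.0716), 906 had an unadjusted p under 0.05 and DESeq2 called 11. Without young replicate 1, 13 genes were called and without young replicate 2, 162, in fits that leave young rats at 1. Dlg2 went from 13.1 and 11.7 CPM in young to 108 and 109 in old members and from 22.8 and 18.3 to 28.8 and 41.9 CPM in other macrophages (log2 difference 2.38, SE 0.21, adjusted p = 0.101). Gsta1, a glutathione S-transferase, went from 73.9 and 58.2 to 285 and 699 CPM in members and from 25 and 21.8 to 38 and 71.1 CPM in others (log2 difference 1.61, SE 0.18, adjusted p = 0.221). In both genes the old members lay above the other 3 sets of values, in 2 of 2 old rats.

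Hpgds, the haematopoietic synthase of prostaglandin D2, was lower with age in both populations, from 103 and 61.7 to 27.4 and 22.9 CPM in members and from 33.3 and 28.2 to 2.6 and 1.95 CPM in others (log2 difference 2.06, SE 0.24, adjusted p = 0.221), so the positive value stands for the smaller fold in members. Emp1 and Ldb2 had differences of 1.43 and 1.28 (adjusted p = 0.221 for both). On the negative side Jchain, the joining chain of IgM and IgA made by plasma cells, had 8.6 and 0.437 CPM in young and 13.1 and 9.43 in old members and 1.51 and 0.0944 CPM in young and 80.6 and 35.4 in old other macrophages (log2 difference -4.81, SE 0.36, adjusted p = 0.0716). Of the 4 plasma cell genes listed, 3 had a UMI in members of each young and old rat. The 3 genes other than Jchain summed to 14.0 and 11.8 CPM in young and 19.7 and 25.6 in old members and to 16.9 and 13.8 CPM in young and 63.5 and 80.8 in old other macrophages, and the part of plasma cell RNA in Jchain was not tested. AABR07034739.2, AABR07060872.1, AABR07065772.3 and Lilra5 completed the negative side, with adjusted p from 0.221 to 0.492. Of the 13 alternatives run, Hpgds passed in 6, Dlg2, Emp1 and Jchain in 5, Gsta1 in 4 and Ldb2 in 3.

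**Figure D5:**
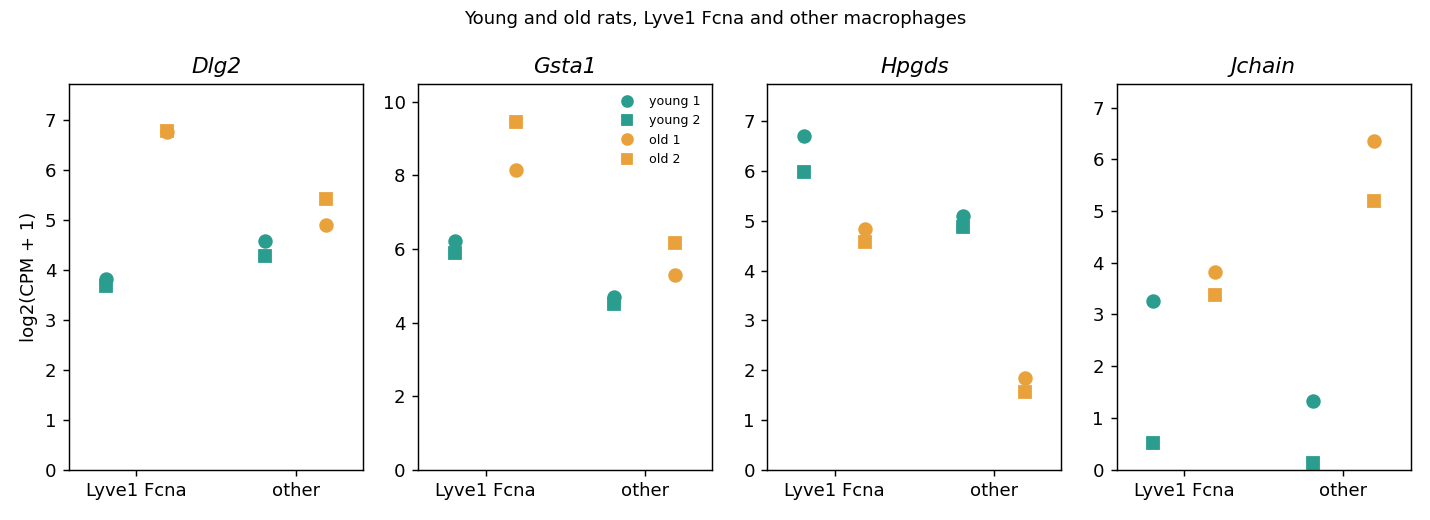
Levels of Dlg2, Gsta1, Hpgds and Jchain as log2(CPM + 1) in Lyve1 Fcna macrophages (left of each panel) and other macrophages (right), with green symbols for the 2 young and orange symbols for the 2 old rats. Dlg2 and Gsta1 are highest in old members, Hpgds is lowest in old other macrophages and Jchain is highest there, and none of the 4 passed the interaction test.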

How the data were processed

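Single-cell RNA libraries of 6 rats (Chromium 3′ chemistry, 1 rat a library) were deposited as filtered matrices of raw UMI counts per gene and barcode, made by the authors with Cell Ranger (5.0.0 per the file headers) and, per the submitters' processing notes, on Rnor_6.0, with 32883 genes. The cell type, its members and the 13 gene lists were chosen with earlier results of these data known, and the cell rule is given in the report. Doublets were not called. Mixed members (at least 2 detected B cell genes, or 3 of fibroblasts, blood endothelium or mast cells) were left out as an alternative.

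Member counts were summed per rat and tested with edgeR 4.0.16 (R 4.3.3, limma 3.58.1; TMM factors, expression filter, quasi-likelihood fit over the 3 groups, Benjamini-Hochberg adjustment). A call needed an adjusted p under 0.05 and a fold over 1.5. Each library summed 137212 to 88751976 UMIs over members. In the group comparisons, p-values rest on a spread pooled over the 3 groups of 2 rats and shared in part between genes. Residual degrees of freedom were 3 and prior ones 5.11. DESeq2 1.42.0, other filters, memberships, thinning to 1500 UMIs and left-out rats were alternatives. The tests were checked on simulated counts. Members were set against other macrophages by CPM + 1 over genes of at least 20 CPM on average, with no test. Shares were compared by exact two-sided permutation over rats (Python 3.11.15, numpy 2.4.6, scipy 1.17.1, pandas 2.3.3, figures with matplotlib 3.10.9). Intervals are exact 95% binomial and, like floors (3 UMIs), cover counting error only. The 11 genes of the rule are left out of gene results. Symbols shared by several identifiers numbered 288.

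Genes were named by rule: the 12 higher and 12 lower with the largest smallest fold against other macrophages in every rat, the called genes of each contrast or, with fewer than 3 called, the 5 of smallest p in a direction, and up to 4 of each list by p besides its defining genes. Genes outside that rule were named after their values were seen. Some genes of the lists are not reported here by name.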

Additional observations from a re-analysis of the deposited data

How the results depend on the processing

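The mean share of members among macrophages was lower in old than in young rats under each alternative run, by 11.6 to 26.0 percentage points with 1 rat left out, while the rats of both groups overlapped with at least 4 UMIs required and in thinned cells. HFHF-old minus old turned to 1.03 points with 1 UMI of each gene required and to 2.54 points in thinned cells, and ran from -26.4 to 17.6 points with 1 rat left out (1.17 without old replicate 1, 17.6 without HFHF-old replicate 2). Among kept cells, HFHF-old minus old ran from -12.9 (without HFHF-old replicate 1) to 29.5 points and HFHF-old minus young from -29.4 to 13.005 points (without HFHF-old replicate 2).

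Counts of called genes are given for old against young, HFHF-old against old and HFHF-old against young in this order. DESeq2 called 16, 3 and 34 genes, and no filter on low counts gave 0, 0 and 0. Thinned cells gave 10, 6 and 101, in a fit without HFHF-old replicate 2, of which 6 members were left, under the minimum of 10. Members with at least 4 UMIs, and those with 1 UMI of each gene, gave 2, 0 and 2. Leaving out mixed members gave 10, 0 and 12, and leaving out the top 1% of gene number 1, 0 and 2. The 2 groups alone gave 0, 0 and 4. Genes not lower in members than in non-macrophages, an alternative chosen after seeing the data, gave 8, 0 and 11. With 1 rat left out, old against young gave 0 to 8 calls (8 without young replicate 1, 4 without old replicate 1, 3 without old replicate 2 and 0 otherwise) and HFHF-old against young 0 to 10 (9, 10 and 4 without the same rats and 0 otherwise). A lone rat is then assumed to vary like the other groups.

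Replicate numbers did not pair the rats (correlations of deviations 0.109 for young and old, -0.0465 for young and HFHF-old and 0.0667 for old and HFHF-old). With the replicate number as a block, 2, 0 and 0 genes were called.

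The interaction gave 11 calls with DESeq2, 9 without a filter, 4 with at least 4 UMIs, 2 with 1 UMI of each gene, 2 without mixed members and 5 in thinned cells. With 1 rat left out it gave 0 to 162 (162 without young replicate 2, 13 without young replicate 1). Against other macrophages, 32 genes were higher and 0 lower with a pseudocount of 10 CPM, 27 and 0 over a mean of 100 CPM, 92 and 7 for at least 4 UMIs against 0, 100 and 7 without mixed members, and 60 and 51 in thinned cells, again in 5 rats without HFHF-old replicate 2. With 1 rat left out, 48 to 78 were higher (78 without young replicate 2) and 3 to 13 lower (8 without young replicate 2, 13 without HFHF-old replicate 1). The cause was not tested for any of these. The number of cells limits HFHF-old replicate 2 most, with 14 members. Of the alternatives for single named genes, 548 kept direction and side of the threshold, 91 passed it newly, 10 no longer passed and 0 reversed.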

Other observations

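RNA from other cells was present in the members, so genes at least as high in the members as in the non-macrophages of the same rat in the 5 rats other than HFHF-old replicate 2 (3114 genes tested) were also tested alone, an alternative chosen after seeing the data. In edgeR's quasi-likelihood test it called 8 genes for old against young, all higher in old rats, and 11 for HFHF-old against young, 10 higher and 1 lower. None of these passed among all 14624 genes, and the smaller number of genes tested lowers the adjustment. For old against young the genes were Slc13a3, Gsta1, Akr1b8, Pfkfb3, Cd300a, Olr1, Il1b and Nod2.

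Gsta1, a glutathione S-transferase, was at 78.6 and 62.8 CPM in young, 305 and 749 in old and 167 and 100.01 in HFHF-old rats (log2 fold change 2.85, SE 0.43, adjusted p = 0.0496). Akr1b8, an aldo-keto reductase, was at 4.22 and 4.72 CPM in young, 39.5 and 21.2 in old and 44.9 and 5.88 in HFHF-old rats (log2 fold change 2.79, SE 0.46, adjusted p = 0.0496), where 5.88 CPM is 1 UMI. Pfkfb3, which drives glycolysis through fructose 2,6-bisphosphate, was at 49.7 and 44.2 CPM in young, 157 and 164 in old and 67.5 and 41.2 in HFHF-old rats (log2 fold change 1.76, SE 0.28, adjusted p = 0.0496), so both old rats were above the other 4. Nod2, a sensor of bacterial muramyl dipeptide, was at 16.4 and 11.1 CPM in young, 56 and 42.7 in old and 40.7 and 35.3 in HFHF-old rats (log2 fold change 1.85, SE 0.31, adjusted p = 0.0496), and Cd300a, an inhibitory receptor, at 20.1 and 20.1 CPM in young, 59.4 and 72.8 in old and 36.7 and 47.1 in HFHF-old rats (log2 fold change 1.70, SE 0.28, adjusted p = 0.0496).

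For HFHF-old against young, Hpse was at 29.9 and 39.9 CPM in young, 57.9 and 60.1 in old and 118 and 135 in HFHF-old rats (log2 fold change 2.04, SE 0.31, adjusted p = 0.0258) and Fcgr2b, the inhibitory receptor for IgG, at 33.8 and 30.3 CPM in young, 156 and 89.1 in old and 125 and 259 in HFHF-old rats (log2 fold change 2.70, SE 0.46, adjusted p = 0.0392). Both HFHF-old rats and both old rats were above both young rats for these genes. Olr1 (log2 fold change 3.87, SE 0.38, adjusted p = 0.00322) and Ltc4s (log2 fold change -2.51, SE 0.39, adjusted p = 0.0258) were the genes of smallest p on either side. Vsig4, Klhl41, Il1a and AABR07021465.1 were called with 0 UMIs in HFHF-old replicate 2, and Zfand2a, Akr1b8 and Ccl9 completed the list.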
